A study of Homo sapiens with 18 samples.

Results

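The levels of 10 imprinted growth regulators were followed in 3 Ewing sarcoma cell lines. They are the genes with the symbols MEG3, DLK1, MEG8, H19, PEG3, PEG10, MEST, NDN, PLAGL1 and GRB10. They were chosen by symbol, and each of the 10 had 1 row among the 58381 rows of each count table. Ewing sarcoma is a tumour of bone and soft tissue, and all of these lines (A673, TC-32 and TC-71) carry EWSR1::FLI1, a fusion that joins EWSR1 to the ETS transcription factor FLI1. In each line, 3 libraries came from cells transfected with siFLI1, a small interfering RNA against FLI1 that depletes the fusion, and 3 from cells transfected with the negative control siNeg, both at 20 nM with a lipid reagent. The control cells therefore carried the fusion and had also been transfected. TC-32 and TC-71 shared a culture medium, and A673 was grown in another. A time of 48 h stands in the column names for TC-32 and TC-71, and A673 columns carry none. Another line, ES-5838, and another siRNA, siERG, are named for the study and are not analysed here. Nothing in the labels says that the replicates came from separate cultures, so the p-values measure the spread between these libraries, which may be technical.

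An imprinted gene is expressed mainly from the copy inherited from one parent, a state kept by DNA methylation at a control region that several genes of a cluster share. DLK1, IGF2, MEST, PEG3, PEG10, NDN and PLAGL1 are expressed from the paternal copy. Of the maternally expressed noncoding RNAs, H19 shares a cluster with IGF2, and MEG3 and MEG8 share one with DLK1. Many products of imprinted genes promote or restrain fetal growth. EWSR1::FLI1 binds the core GGAA of ETS motifs and, in Ewing sarcoma, repeats of it.

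Of the 10 genes, MEG3, DLK1 and MEG8 share 1 cluster on chromosome 14. MEG3 (ENSG00000214548.15) lies at chr14:100779410-100861031, DLK1 (ENSG00000185559.13) at chr14:100725705-100738224 and MEG8 (ENSG00000225746.10) at chr14:100894770-101038859, each on the plus strand of GRCh38 in GENCODE release 44. H19 (ENSG00000130600.18) lies at chr11:1995166-2004552 and NDN (ENSG00000182636.5) at chr15:23685400-23687305, both on the minus strand. PEG10 (ENSG00000242265.5) at chr7:94656325-94669695 and MEST (ENSG00000106484.15) at chr7:130486171-130506465 are on the plus strand. PEG3 (ENSG00000198300.12) at chr19:56810077-56840728, PLAGL1 (ENSG00000118495.18) at chr6:143940300-144064599 and GRB10 (ENSG00000106070.18) at chr7:50590063-50793462 are on the minus strand.

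RefSeq start sites were matched for 6 of the 10 genes. The 250 bases before the start are shown for the 3 of them whose starts form a single site or cluster, because MEG3, H19 and NDN rose after siFLI1 wherever they could be tested. Capitals mark GGAA and its reverse complement TTCC, the core of the ETS motif, and each window is written 5′ to 3′ on the strand of the gene (GRCh38.p14), at chr14:100825858-100826107, chr11:2001267-2001516 and chr15:23687306-23687555.
MEG3: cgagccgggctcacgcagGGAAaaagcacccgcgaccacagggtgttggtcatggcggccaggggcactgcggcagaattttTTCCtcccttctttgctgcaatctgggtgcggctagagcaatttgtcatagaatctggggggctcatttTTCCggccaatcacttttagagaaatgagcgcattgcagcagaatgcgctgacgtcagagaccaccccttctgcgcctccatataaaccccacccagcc
H19: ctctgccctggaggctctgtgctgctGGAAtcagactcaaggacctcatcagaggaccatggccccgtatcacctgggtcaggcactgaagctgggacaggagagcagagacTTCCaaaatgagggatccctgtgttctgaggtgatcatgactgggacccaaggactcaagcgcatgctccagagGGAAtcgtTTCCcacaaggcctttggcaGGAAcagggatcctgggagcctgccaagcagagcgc
NDN: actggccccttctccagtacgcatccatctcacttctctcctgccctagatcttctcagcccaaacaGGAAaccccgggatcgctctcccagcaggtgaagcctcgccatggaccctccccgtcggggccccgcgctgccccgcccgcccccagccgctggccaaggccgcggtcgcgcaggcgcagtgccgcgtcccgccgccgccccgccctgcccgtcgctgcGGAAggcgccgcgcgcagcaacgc

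The MEG3 window held 3 matches to GGAA on either strand, the H19 window 5 and the NDN window 2. Among 35116 windows of the same length before RefSeq starts, the median was 3 matches, 92.7% held at least 1 and 18.6% held at least 5. None of the 20 windows of the 6 matched genes held the tandem GGAAGGAA on either strand, against 3.06% of all windows. The NDN window held 30 CpG dinucleotides and the H19 window 4, with a median of 11 over all windows. A match is a description of the letters, and binding was not measured.

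H19, MEST and MEG3 also host microRNAs, short RNAs that pair with target transcripts through their seed, bases 2 to 8. The mature sequences from RefSeq (GRCh38.p14) are shown with the seed in capitals, because a change of the host transcript is the only view of them that these libraries give: mature microRNAs were not measured.
hsa-miR-675-5p, in H19: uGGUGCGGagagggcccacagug
hsa-miR-675-3p, in H19: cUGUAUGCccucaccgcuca
hsa-miR-335-5p, in MEST: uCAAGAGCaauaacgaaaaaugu
hsa-miR-335-3p, in MEST: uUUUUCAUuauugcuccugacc
hsa-miR-770-5p, in MEG3: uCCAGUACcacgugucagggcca
hsa-miR-2392, in MEG3: uAGGAUGGgggugagaggug

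No pair of these 6 shared a seed. The entry hsa-miR-2392, at chr14:100814551-100814570, lies within the GENCODE span of MEG3 but before the RefSeq starts used above. A MEG3 transcript from those starts would not hold it, so the change of MEG3 may give no view of it. The body of MEG8 holds 25 further mature entries of the chromosome 14 microRNA cluster.

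Total counts per library ran from 19685354 to 37234528 in TC-32 and TC-71 and from 114564479 to 120993595 in A673, so low levels were measured more finely in A673. Levels are given as CPM, read counts relative to library size after TMM scaling of all 18 libraries together, as mean ± SD over 3 libraries. FLI1, the target, averaged 48.3 ± 2.60 CPM after siNeg and 24.1 ± 0.496 after siFLI1 in TC-32. The pair was 42.4 ± 1.91 and 15.6 ± 1.34 for TC-71 and 83.5 ± 0.878 and 19.8 ± 0.309 for A673. Of 6 Ewing sarcoma markers, CD99 was listed at 0 in all 6 TC-71 libraries and the other 5 were detected in every library. The 3 fibroblast markers COL1A1, PDGFRB and THY1 were expressed in every line, with a summed level of 103 to 253 CPM in the siNeg libraries and 2226 to 4303 in the siFLI1 libraries, where most of the sum was COL1A1. THY1 did not move with COL1A1 in every line: its mean after siNeg and after siFLI1 was 51.5 and 70.1 CPM in TC-32, but 22.4 and 19.1 for TC-71 and 66.9 and 42.3 for A673. Markers of blood, epithelium and endothelium (PTPRC, EPCAM and PECAM1) summed to at most 2.68 CPM in any library, and PECAM1 was at 0 in the siNeg libraries of TC-71. The part of these other-cell markers in the results was not tested. In bulk libraries, fewer cells with a transcript and less of it per cell cannot be told apart.

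After siFLI1, most of the 10 genes that could be tested were higher. For MEG3, MEG8, H19, NDN and PLAGL1 the rise was larger in TC-32 than in each other line for which the difference is given. For MEG8 that line was A673 alone, and for H19 and NDN it was TC-71 alone. H19 and MEG8 in TC-32 and PLAGL1 in A673 could be tested only through their siFLI1 libraries. The log2 fold change in TC-32 was 10.28 for H19 and 5.41 for MEG3. MEST rose in all 3 lines by a log2 fold change of 2.69 to 3.16, and PLAGL1 and MEG3 also rose in all 3. PEG10 moved in opposite directions, falling in TC-32 and rising in A673. PEG3 in A673 and GRB10 in TC-71 fell. The comparison of siFLI1 with siNeg was made in each line on its own with edgeR's quasi-likelihood test, with calls made below an adjusted p of 0.05, the adjustment running over all genes tested in that line.

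In TC-32, 9 of the 10 genes passed the filter on low counts, and 7 were called higher, 1 lower and 1 neither. The background was high, with 81.4% of the 16227 genes tested called, 41.3% higher and 40.1% lower. Of the 9, 4 (DLK1, MEG8, H19 and GRB10) passed the filter only through the siFLI1 libraries, so they could be tested only if they were expressed there. TC-71 had 7 that could be tested (6 higher, 1 lower), where 71.9% of 17085 genes were called, 36.8% higher and 35.0% lower. MEST passed there only through the siFLI1 libraries. For A673 the filter passed 7, of which 6 were higher and 1 lower, where 71% of 18444 genes were called, 35.6% higher and 35.4% lower, and DLK1 and PLAGL1 passed only through the siFLI1 libraries. No overlap between siFLI1 and siNeg values was seen for 8 of 9 genes in TC-32, 7 of 7 in TC-71 and 7 of 7 in A673, where 82.5%, 73.6% and 73.5% of all genes tested were free of overlap. Among the genes that passed the filter through the libraries of both siRNAs, 4 of 5 were higher in TC-32, 5 of 6 in TC-71 and 4 of 5 in A673, and the remaining gene was lower in each. Of the 10, 4 were tested in all 3 lines. MEG3, MEST and PLAGL1 were higher in each, a pattern of 18.9% of the 14233 genes tested in all 3, and PEG10 was called with mixed directions, as were 13.7%.

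**Figure D1:**
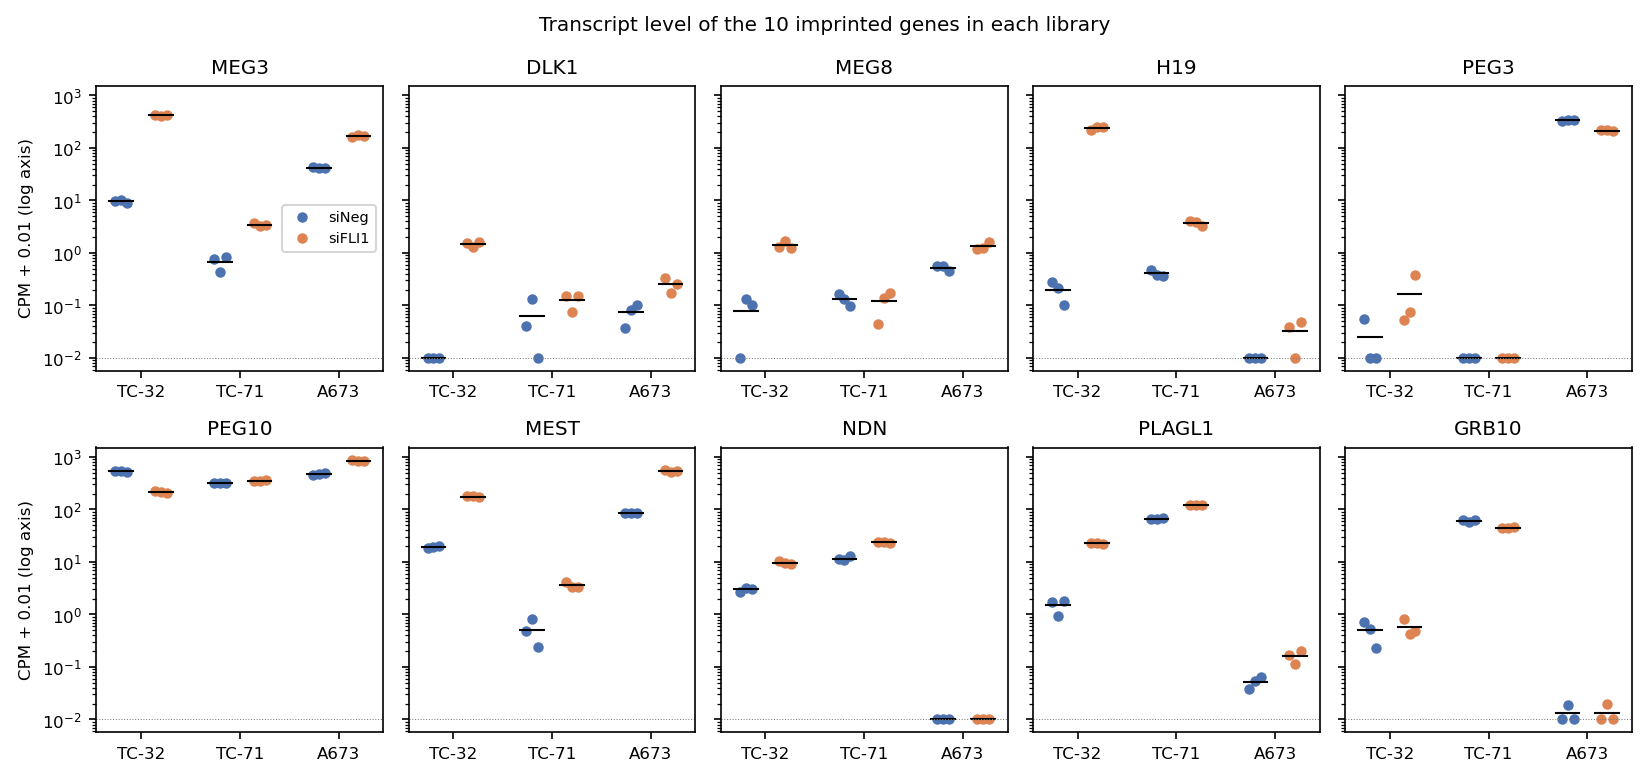
Level of each of the 10 genes as CPM + 0.01 on a log axis, by line, with 1 point per library (blue siNeg, orange siFLI1) and a bar at the mean of 3. The dotted line marks a count of 0, where all 6 NDN points of A673 and all 6 PEG3 points of TC-71 lie, and H19 in TC-32 spans from 0.0899 to 256 CPM.

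The chromosome 14 cluster is taken first. MEG3 is a long noncoding RNA with growth-restraining activity described in several tumours. In TC-32 it stood at 9.77, 10.1 and 9.03 CPM in the siNeg libraries and at 423, 416 and 423 in the siFLI1 libraries, a log2 change of 5.41 (standard error 0.0571, adjusted p = 2.63e-28, edgeR). A673 went from 42.8, 41.5 and 41.4 CPM to 165, 176 and 170, a log2 change of 2.02 (standard error 0.0402, adjusted p = 1.89e-16, edgeR). TC-71 remained at a far lower level, with 0.775, 0.418 and 0.814 CPM after siNeg and 3.69, 3.20 and 3.42 after siFLI1, a log2 change of 2.26 (standard error 0.206, adjusted p = 5.20e-11, edgeR). The siRNA groups of MEG3 did not overlap in any line. A673 started higher than TC-32, and after siFLI1 TC-32 stood above A673.

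MEG8, a noncoding RNA downstream of MEG3 that hosts small nucleolar RNAs and microRNAs, was low throughout. Its counts in TC-32 were 0, 3 and 2 after siNeg and 29.84, 51.89 and 34 after siFLI1, a log2 change of 4.17 (standard error 0.499, adjusted p = 3.01e-08, edgeR). In A673 it went from 0.546, 0.566 and 0.443 CPM to 1.16, 1.25 and 1.60, a log2 change of 1.36 (standard error 0.173, adjusted p = 2.92e-06, edgeR). Neither of these comparisons overlapped. In TC-71, MEG8 had 5, 3 and 3 counts after siNeg and 1, 4 and 7 after siFLI1, which overlap and were too few to test. Of its annotated exon bases, 13.0% are shared with small RNA genes and MIR493HG on the same strand, whose reads could be counted under either name.

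DLK1 encodes a transmembrane protein related to the Notch ligands that restrains differentiation of several cell types. It was absent from all 3 siNeg libraries of TC-32, where a count of 0 allows up to 3 counts per library, and had 36, 40 and 44 counts in the siFLI1 libraries. That is at least 11.4-fold higher (edgeR adjusted p = 1.12e-09), and the level reached was 1.48 ± 0.174 CPM. In A673 the counts were 3, 8 and 10 after siNeg and 34, 17 and 26 after siFLI1, a log2 change of 1.91 (standard error 0.435, adjusted p = 0.000891, edgeR), without overlap. TC-71 held 1, 3 and 0 counts after siNeg and 4, 2 and 6 after siFLI1, which were not tested. Even after siFLI1 DLK1 was a scarce transcript in all 3 lines.

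Other genes of the cluster did not follow 1 pattern across lines. MEG9, a further noncoding RNA of the cluster, rose in TC-32 from 0.130 to 4.42 CPM (log2 fold change 5.01, edgeR adjusted p = 1.62e-13) and in A673 from 0.412 to 1.60 (1.94, 8.88e-08). In TC-71, where MEG3 rose, the 3 other cluster genes tested fell: DIO3, which encodes a thyroid hormone deiodinase, with a log2 change of -2.49 (adjusted p = 8.14e-08, edgeR), its antisense neighbour DIO3OS with -1.40 (0.00236) and BEGAIN with -1.21 (3.45e-05). DIO3OS rose in TC-32, from 0.0715 to 0.795 CPM (log2 fold change 3.36, edgeR adjusted p = 4.23e-06). RTL1 was too low to test in any line. DIO3 and DIO3OS passed the filter in TC-71 only through the siNeg libraries. MEG9 and DIO3OS passed in TC-32 only through the siFLI1 libraries. The filter therefore favoured the direction of those calls, and nothing is read from it. MEG9 in A673 and BEGAIN in TC-71 passed through the libraries of both siRNAs.

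H19, the maternally expressed noncoding RNA of the chromosome 11 cluster, had the largest fitted change of the 10 genes. Its counts in TC-32 were 6, 5 and 2 after siNeg and 5287, 7858 and 6931 after siFLI1, from 0.186 ± 0.0898 to 244 ± 18.2 CPM, a log2 change of 10.28 (standard error 0.131, adjusted p = 1.95e-25, edgeR). In TC-71 it went from 0.465, 0.376 and 0.349 CPM to 4.03, 3.95 and 3.25, a log2 change of 3.17 (standard error 0.224, adjusted p = 1.62e-13, edgeR). A673 had 0 counts in all 3 siNeg libraries and 3, 0 and 4 in the siFLI1 libraries, too few to test although these libraries were the deepest. The siRNA groups did not overlap in TC-32 or TC-71. With 1 library left out, the TC-32 change ran from 9.96 to 10.59, wider than its 95% interval of 10.01 to 10.55. With so few siNeg counts, that interval and its standard error understate the uncertainty.

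IGF2, the paternally expressed growth factor that shares its control region with H19, also rose in TC-32, from 0.180 to 5.11 CPM (log2 fold change 4.71, edgeR adjusted p = 6.32e-13), and in A673 from 0.158 to 0.557 (1.81, 9.63e-06). In TC-32 it passed the filter only through the siFLI1 libraries. IGF2 was too low to test in TC-71, and 43.2% of its exon bases are shared with INS-IGF2 on the same strand. CDKN1C, a growth-restraining inhibitor of cyclin-dependent kinases, rose in TC-32 from 3.64 to 48.7 CPM (3.70, edgeR adjusted p = 3.60e-15) and fell in A673 from 0.682 to 0.294 (-1.22, 0.000263). Its call in TC-71 (log2 fold change 0.66, edgeR adjusted p = 0.0134) was lost with DESeq2 (adjusted p = 0.110), without siNeg replicate 3 (0.0871) and without siFLI1 replicate 3 (0.0548). KCNQ1OT1, the noncoding RNA of the CDKN1C domain, rose in TC-32 (1.67), TC-71 (0.86) and A673 (0.23; edgeR adjusted p = 5.24e-14, 1.82e-06 and 0.000418). PHLDA2, a gene that restrains placental growth, fell in TC-32 (log2 fold change -0.54, edgeR adjusted p = 0.00590) and rose in TC-71 (1.01, 3.76e-10) and A673 (1.03, 8.11e-09).

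**Figure D2:**
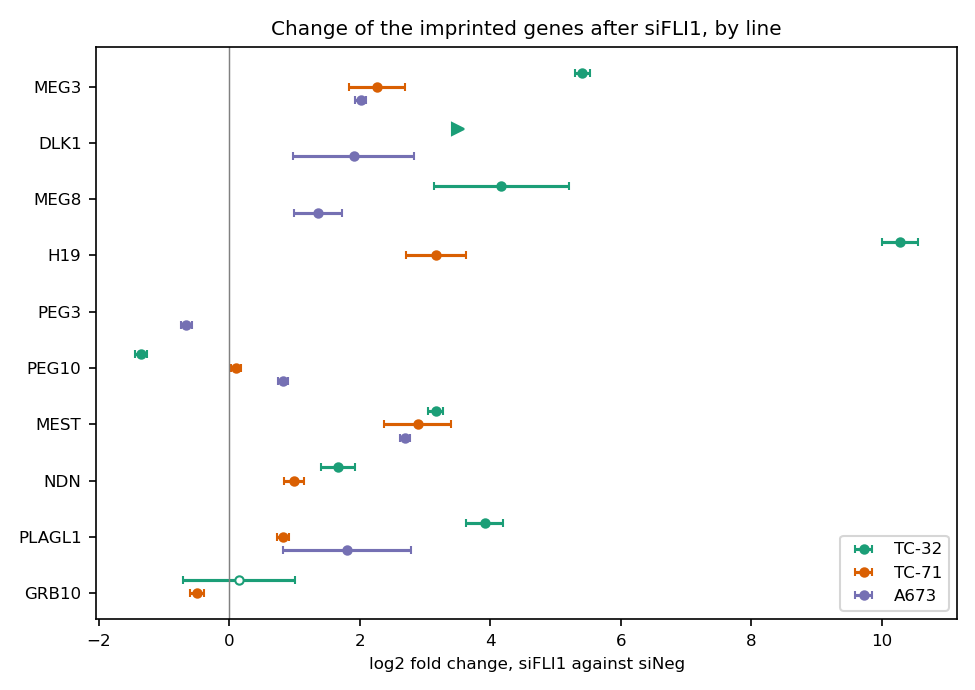
Log2 fold change of siFLI1 against siNeg for each gene tested, by line, with 95% confidence intervals computed from the edgeR fold change and F statistic. The interval understates the uncertainty for H19 in TC-32. The open point is not past the threshold and the triangle is the lower bound for DLK1 in TC-32. H19 in TC-32 lies at 10.28, and the 3 PEG10 points lie at -1.35, 0.11 and 0.82.

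MEST, PEG10, NDN, PEG3 and PLAGL1 are expressed from the paternal copy. MEST encodes a protein of the alpha/beta hydrolase family, and its gene hosts miR-335. Its siNeg libraries stood at 18.1, 18.98 and 20.5 CPM in TC-32, and its siFLI1 libraries at 177, 177 and 173, a log2 change of 3.16 (standard error 0.0569, adjusted p = 3.91e-24, edgeR). In A673 the values were 84.2, 84.8 and 84.0 CPM after siNeg and 566, 527 and 552 after siFLI1, a log2 change of 2.69 (standard error 0.0390, adjusted p = 4.69e-18, edgeR). TC-71 had 15, 19 and 8 counts after siNeg and 117, 103 and 144 after siFLI1, a log2 change of 2.89 (standard error 0.249, adjusted p = 3.19e-11, edgeR). The groups did not overlap in any line, and the siNeg mean was 84.3 CPM in A673 against 0.497 in TC-71. Of the MEST exon bases, 27.6% are shared with COPG2 and MESTIT1 on the opposite strand, and whether counting used strand is not given in the sources used here. COPG2 itself changed little, with log2 fold changes of -0.37, 0.40 and -0.22 in TC-32, TC-71 and A673 (edgeR adjusted p = 6.29e-06, 3.72e-07 and 0.000328).

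CPA4, a carboxypeptidase gene of the MEST cluster, had the largest fitted change among the other imprinted genes tested in each line. Its mean CPM after siNeg and after siFLI1 was 0.0567 and 58.5 (TC-32), 0.0139 and 24.04 (TC-71) and 0.268 and 484 (A673), or log2 changes of 9.84, 10.62 and 10.81 (edgeR adjusted p = 1.13e-24, 4.31e-25 and 1.67e-20). The TC-71 siNeg libraries held 1 count of CPA4 in all and those of TC-32 1 to 2 each, so these fitted folds depend on the prior count and are imprecise. Those siNeg levels lay below the filter levels of 0.382 CPM (TC-32) and 0.375 CPM (TC-71). CPA4 therefore passed in these lines only through the siFLI1 libraries, which favoured a rise.

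PEG10 derives from a retrotransposon and is needed for placental development. It was the most abundant of the 10 genes per length in every line after siNeg. In TC-32 it stood at 542, 532 and 513 CPM after siNeg and 222, 213 and 202 after siFLI1, a log2 change of -1.35 (standard error 0.0427, adjusted p = 2.35e-19, edgeR). A673 moved the other way, from 455, 480 and 485 CPM to 859, 833 and 832, a log2 change of 0.82 (standard error 0.0359, adjusted p = 4.26e-12, edgeR). In TC-71 the siFLI1 libraries, at 350, 344 and 362 CPM, lay just above the siNeg libraries, at 317, 315 and 324, a log2 change of 0.11 (standard error 0.0396, adjusted p = 0.0191, edgeR). That small difference lost its call without siNeg replicate 1 (0.091, adjusted p = 0.0938), siNeg replicate 2 (0.090, 0.0788) or siFLI1 replicate 3 (0.093, 0.0615). All 3 neighbours of PEG10 that were tested were called higher in each line: SGCE, an imprinted sarcoglycan gene that is transcribed from the same region in the other direction, by 0.57, 0.83 and 0.55, and TFPI2, an inhibitor of serine proteases, by 2.87, 1.67 and 4.01 in TC-32, TC-71 and A673. The highest edgeR adjusted p among these 6 values was 4.34e-08. PPP1R9A, which encodes a neuronal actin-binding protein, rose by 2.15 in TC-32 and 0.83 in TC-71 (highest edgeR adjusted p = 1.98e-06). Its value in A673, 0.18 (0.00531), lost its call with library size alone (0.077, 0.188).

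NDN encodes necdin, a growth-restraining protein of the MAGE family lost in Prader-Willi syndrome. In TC-32 it went from 2.72, 3.18 and 3.06 CPM to 10.4, 9.48 and 9.31, a log2 change of 1.66 (standard error 0.124, adjusted p = 7.75e-12, edgeR). In TC-71 it went from 11.2, 10.7 and 12.7 CPM to 23.9, 24.3 and 23.3, a log2 change of 1.00 (standard error 0.0766, adjusted p = 1.30e-12, edgeR). The groups did not overlap in either line. All 6 A673 libraries had 0 counts of NDN, which allows at most 0.0289 CPM in any of them. MAGEL2, its neighbour and relative, was tested only in TC-71 and rose there from 1.02 to 2.91 CPM (log2 fold change 1.41, edgeR adjusted p = 6.03e-07). SNRPN, a splicing factor gene of the same domain, rose by 0.33, 0.50 and 0.38 in TC-32, TC-71 and A673 (edgeR adjusted p = 2.13e-06, 0.00457 and 7.12e-07). SNRPN shares 43.9% of its exon bases with other genes on the same strand and SNURF 52.1%, so the reads of both are uncertain. SNURF, transcribed together with SNRPN, fell in A673 (log2 fold change -0.70, edgeR adjusted p = 0.00313), and its call in TC-32 (0.64, 0.0264) was lost with DESeq2 (0.104) and without any 1 of 4 libraries. UBE3A, a ubiquitin ligase gene of the domain, fell in TC-32 (-0.21, edgeR adjusted p = 0.00104) and rose in A673 (0.22, 0.000514), with 0.10 in TC-71 (0.0706). SNHG14, the long noncoding RNA of the domain, rose in TC-32 (0.69, edgeR adjusted p = 3.93e-12) and A673 (0.53, 1.07e-08), with -0.026 in TC-71 (0.647). Calls in the domain thus went both ways in TC-32 and, through SNURF alone, in A673. None of its genes named here was called lower in TC-71.

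PLAGL1 encodes a zinc finger protein that arrests the cell cycle in several systems. In TC-32 it stood at 1.70, 0.925 and 1.80 CPM after siNeg and 22.7, 22.8 and 22.2 after siFLI1, a log2 change of 3.92 (standard error 0.137, adjusted p = 2.43e-18, edgeR). TC-71 started at 64.4, 66.5 and 67.5 CPM and reached 119, 121 and 121, a log2 change of 0.83 (standard error 0.0457, adjusted p = 5.40e-16, edgeR). A673 held 3, 5 and 6 counts after siNeg and 17, 11 and 20 after siFLI1, a log2 change of 1.80 (standard error 0.462, adjusted p = 0.00217, edgeR). The groups were apart in all 3 lines. HYMAI, the noncoding RNA that shares 4.5% of the PLAGL1 exon bases, was tested only in TC-71, where it rose from 0.145 to 0.685 CPM (log2 fold change 2.09, edgeR adjusted p = 0.000166). Its siNeg mean lay below the filter level of 0.375 CPM in TC-71, so the siNeg libraries could not have passed it. The filter therefore favoured a rise of HYMAI, and nothing is read from its direction.

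PEG3 encodes a large zinc finger protein with growth-restraining activity and was in effect a transcript of A673. It stood there at 324, 343 and 339 CPM after siNeg and 217, 218 and 207 after siFLI1, a log2 change of -0.66 (standard error 0.0372, adjusted p = 1.28e-10, edgeR), without overlap. TC-32 had 1, 0 and 0 counts after siNeg and 1, 2 and 10 after siFLI1, and TC-71 had 0 in all 6 libraries, so neither was tested. Of the PEG3 exon bases, 39.1% are shared with ENSG00000286125 on the opposite strand and 12.9% with ZIM2 on the same strand. The other 2 cluster genes tested in A673 fell with it: ZIM2 from 2.67 to 1.46 CPM (log2 fold change -0.87, edgeR adjusted p = 5.86e-06) and MIMT1 from 0.929 to 0.298 (-1.64, 8.54e-07).

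GRB10 encodes an adaptor that binds the insulin and IGF1 receptors and restrains their signal. It was expressed mainly in TC-71, where it stood at 62.3, 58.8 and 63.7 CPM after siNeg and 44.6, 44.2 and 46.5 after siFLI1, a log2 change of -0.49 (standard error 0.0518, adjusted p = 1.28e-09, edgeR). These groups did not overlap. In TC-32 the counts, 16, 13 and 5 after siNeg and 19, 13 and 13 after siFLI1, overlapped, with a log2 fold change of 0.15 (95% confidence interval -0.71 to 1.01, edgeR adjusted p = 0.745). The interval includes changes as large as that of TC-71. A673 had 1 count in all over 3 libraries of each siRNA.

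Whether siFLI1 changed a gene differently in 2 lines was tested as an interaction in 1 model of all 18 libraries. It is given for genes tested in both lines on their own and with no group at 0. MEG8, H19 and GRB10 in TC-32, MEST in TC-71 and PLAGL1 in A673 had entered only through the siFLI1 libraries, so nothing is read from the counts of genes that differed. Between TC-32 and A673, all 5 such genes differed, where 62.1% of 19610 genes did. The change was higher in TC-32 by 3.42 for MEG3 (edgeR adjusted p = 3.20e-28), 2.89 for MEG8 (4.88e-05), 2.17 for PLAGL1 (0.000522) and 0.50 for MEST (1.22e-06). For PEG10 the difference was -2.15 (1.77e-26). Between TC-32 and TC-71, 5 of 7 differed, where 53.6% of genes did: H19 by 7.12 (edgeR adjusted p = 1.82e-13), MEG3 by 3.14 (7.61e-14), PLAGL1 by 3.09 (1.71e-19), NDN by 0.66 (0.000367) and PEG10 by -1.46 (1.68e-21). The median difference over all genes in that contrast was -0.11.

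For MEST the difference between TC-32 and TC-71 was 0.26, with an interval of -0.25 to 0.77 (edgeR adjusted p = 0.419), and for GRB10 0.62, with an interval of -0.091 to 1.33 (0.138). Both were called when 1 library was left out: MEST without TC-71 siNeg replicate 3 (0.64, adjusted p = 0.0430) and GRB10 without TC-32 siNeg replicate 1 (0.97, 0.0422). MEST turned to -0.17 without TC-71 siNeg replicate 2. Between A673 and TC-71, 2 of 4 differed, where 51.6% of genes did: PEG10 by 0.68 (edgeR adjusted p = 7.48e-13) and PLAGL1 by 0.92 (0.0469). The PLAGL1 call was lost under 13 of the 18 alternatives listed for it, with adjusted p up to 0.198. MEG3 differed by -0.28 (interval -0.64 to 0.089, adjusted p = 0.230) and MEST by -0.23 (interval -0.72 to 0.25, 0.435). MEST reached -0.67 (adjusted p = 0.0418) without TC-71 siNeg replicate 2 and 0.14 without siNeg replicate 3.

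The siNeg libraries give the level of each gene in cells that keep the fusion. Line, table and any batch cannot be told apart in these comparisons, and neither can the counting tool in those with TC-71 nor the medium in those with A673. Per length, as CPM per kb of annotated exon, PEG10 was highest in each line, at 79.1 ± 2.24 (TC-32), 47.6 ± 0.756 (TC-71) and 70.8 ± 2.41 (A673). MEST followed in TC-32 at 4.02 ± 0.248 and NDN at 1.57 ± 0.124, with MEG3 at 0.415 ± 0.0241. PLAGL1 was second in TC-71 at 10.3 ± 0.241, above GRB10 at 6.29 ± 0.259 and NDN at 6.07 ± 0.546, and the last 2 did not differ beyond their spread. PEG3 was second in A673 at 34.4 ± 1.02, then MEST at 17.7 ± 0.0882 and MEG3 at 1.80 ± 0.0328. DLK1 and MEG8 were at most at a mean of 0.0188 CPM per kb in any line, where their order is not resolved. The length used was that of all annotated exons of a gene merged, 23224 bases for MEG3 and 27506 for MEG8. For MEST it was 4767 and for NDN 1906. A transcript much shorter than its merged exons is given too low a level, so the places of MEG3 and MEG8 depend on the annotation. The lines therefore shared high PEG10 and differed in which other gene came next.

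**Figure D3:**
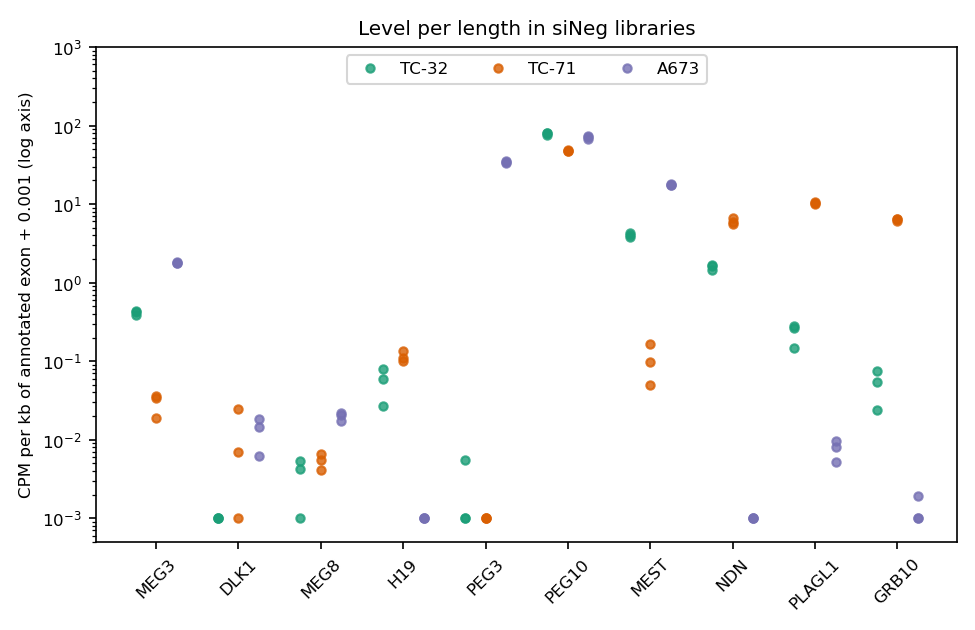
Level of each gene in the siNeg libraries as CPM per kb of annotated exon + 0.001 on a log axis, with 1 point per library and a colour per line. PEG10 points lie between 47.0 and 81.1 in all 3 lines, while PEG3 is high in A673 alone and GRB10 and PLAGL1 are highest in TC-71.

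Baseline differences were tested for genes that averaged at least 10 counts in 1 of the siNeg groups and had more than 3 in each. All 5 such genes differed between TC-32 and A673, where 74.4% of 19610 genes did. All 7 differed between TC-32 and TC-71, where 81.5% of genes did, and all 5 between A673 and TC-71, where 85.8% did. PLAGL1 was highest in TC-71, with a log2 contrast of -5.51 for TC-32 against TC-71 (edgeR adjusted p = 1.45e-31) and of 5.02 for TC-32 against A673 (8.40e-17). MEST exceeded its TC-71 level by 7.50 in A673 (7.24e-35) and by 5.36 in TC-32 (2.30e-27). MEG3 was likewise highest in A673, by 5.91 over TC-71 (1.86e-33), and TC-32 exceeded TC-71 by 3.79 (7.78e-24). GRB10 gave a contrast of -6.97 for TC-32 against TC-71 (1.49e-30) and NDN one of -1.96 (7.72e-16). PEG10 differed least, with TC-32 above A673 by 0.16 (0.000365) and above TC-71 by 0.73 (2.76e-18). Its contrast with TC-71 fell as low as 0.35 among the alternatives, while leaving out a library gave 0.72 to 0.77. H19 gave a contrast of -1.08 for TC-32 against TC-71 (edgeR adjusted p = 0.0384), which lost its call with limma-voom (0.0889), without TC-32 siNeg replicate 2 (0.0756) or 3 (0.179) and without TC-71 siNeg replicate 1 (0.123) or 2 (0.0562).

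Among the genes at or near 0 in 1 line, PEG3 was at least 3294-fold higher in A673 than in TC-71, and NDN exceeded A673 at least 109-fold in TC-32 and 423-fold in TC-71. These bounds use 3 counts per library. H19 exceeded A673 at least 14.5-fold in TC-71. Against the single siNeg count of GRB10 in A673, the ratio was 20392 in TC-71 (exact counting interval 3658 to 805584) and 161 in TC-32 (27.0 to 6548). Contrasts with TC-71 depend on the scaling of the libraries. With library size alone, the median over all genes moved from 0 to -0.37 for TC-32 against TC-71 and from 0.058 to -0.27 for A673 against TC-71. The share of higher calls among all called moved from 50.5% to 35.8% and from 52.2% to 40.5%. No member contrast changed its direction under it.

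By the similarity of log2(CPM + 0.5) over the 18 libraries, the genes nearest to the 3 members of widest range were found among those tested in all 3 lines. They were STIM1 (Pearson r = 0.997), MEGF6 (0.994) and ADCY5 (0.993) for H19, ENG (0.994), LAMP2 (0.993) and TNFRSF10B (0.992) for MEST, and PPP2R1B (0.988), PPP1R2 (0.988) and ARFGAP2 (0.987) for PEG3. The 18 points fall into 6 groups and share lines, tables and siRNAs, so r describes the shape only. The genes near PEG3 followed its difference between lines: none of PPP2R1B, PPP1R2 and ARFGAP2 was called lower in A673, where PEG3 fell.

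Beyond the 10 genes, 53 other imprinted genes were found in the tables. In TC-32, 31 were tested, with 20 higher, 9 lower and a median log2 fold change of 0.58. TC-71 had 34 tested, with 19 higher, 7 lower and a median of 0.53, and A673 had 32 tested, with 16 higher, 11 lower and a median of 0.20. For these lines in the same order, 81.4%, 71.9% and 71% of all genes tested were called and 41.3%, 36.8% and 35.6% were higher, with medians of 0.022, 0.018 and -0.0066. Some genes passed the filter only through the siFLI1 libraries, among them MEG9, DIO3OS, IGF2 and CPA4 in TC-32 and CPA4 in TC-71. DIO3 and DIO3OS passed in TC-71 only through siNeg. Such entry favours a call in that direction, so nothing is read from the counts and medians of these lists. IGF2R, the receptor that clears IGF2, rose in all 3 lines, by 1.41, 1.14 and 1.10 in TC-32, TC-71 and A673 (highest edgeR adjusted p = 4.03e-14). BLCAP, an imprinted gene of chromosome 20, rose by 1.58, 1.08 and 0.66 (highest 3.56e-10). ZNF331, an imprinted zinc finger gene, fell by 1.15, 1.26 and 0.60 on the log2 scale (highest 1.60e-09). The imprinted genes as a class thus moved in both directions.

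**Figure D4:**
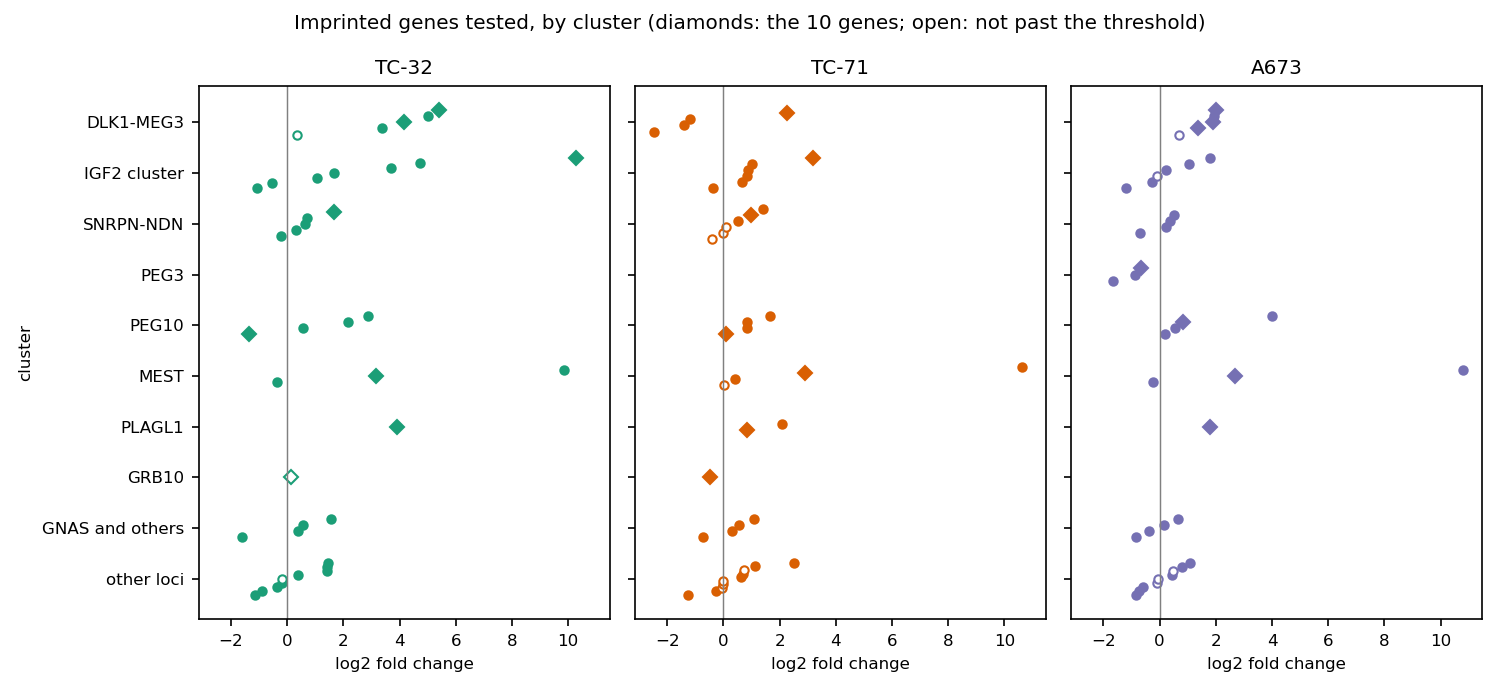
Log2 fold change of siFLI1 against siNeg for the imprinted genes tested, grouped by cluster, with a panel per line, diamonds for the 10 genes, circles for the others and open symbols for those not past the threshold. DLK1 and KLF14, each at 0 in 1 siNeg group, are left out there, and CPA4 of the MEST cluster lies at 9.84, 10.62 and 10.81.

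Genes listed for the control of imprints and DNA methylation were called lower more often than higher in each line. The list mixes factors that set or keep methylation with the TET genes, whose enzymes act in its removal. Its counts are therefore not those of keepers alone. Of 15 listed, 11 were tested in TC-32 (2 higher, 9 lower, median -0.86), 12 in TC-71 (2 higher, 9 lower, median -0.39) and 11 in A673 (1 higher, 9 lower, median -0.37). The share called lower over all genes was 40.1%, 35.0% and 35.4% in these lines. The single higher call in A673, DNMT3B (0.18, edgeR adjusted p = 0.00810), was lost with library size alone (0.077, 0.216). DNMT3B was called lower in TC-32 (log2 fold change -1.27) and TC-71 (-0.96), and both of these calls held under every alternative run. ZNF445, a KRAB zinc finger gene, lost its lower call in TC-32 (-0.14, edgeR adjusted p = 0.0262) with library size alone (-0.092, 0.147), without siNeg replicate 2 (-0.13, 0.0693) and without siFLI1 replicate 2 (-0.090, 0.126). DNMT1, the maintenance DNA methyltransferase, fell in every line, from 422 to 89.2 CPM (TC-32), from 426 to 174 (TC-71) and from 378 to 253 (A673), or log2 changes of -2.28, -1.34 and -0.59 (highest edgeR adjusted p = 4.72e-10). UHRF1, which brings DNMT1 to newly copied DNA, fell by 3.17 in TC-32 and 1.72 in TC-71 (4.38e-24 and 1.65e-21). In A673 it had a log2 fold change of 0.01 (adjusted p = 0.906), and one of -0.098 (0.0199) with library size alone, a scaling that moved the median of all genes there from -0.0066 to -0.11. TRIM28, the corepressor that KRAB zinc finger proteins bring to imprinted control regions, fell by 1.23, 0.45 and 0.37 in TC-32, TC-71 and A673 (highest 3.53e-06). SMCHD1 fell by 1.00, 0.45 and 0.38 (highest 1.57e-06), and CTCF, the insulator protein of the H19 control region, by 0.86, 0.17 and 0.56. The CTCF value in TC-71 (edgeR adjusted p = 0.00378) lost its call without siFLI1 replicate 2 (-0.12, 0.0621). CTCFL, a relative of CTCF usually confined to testis, was at 153 CPM in TC-71 and fell to 69.8 (log2 fold change -1.18, edgeR adjusted p = 5.33e-19), and was too low to test in the other 2 lines. DNMT3A rose in TC-32 and TC-71, by 0.75 and 0.51 (8.80e-13 and 2.50e-11), and fell in A673 by 0.15 (0.00429). DNA methylation and the parental origin of the transcripts were not measured.

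Relatives and partners of the 10 genes, 19 in all, gave 10 higher and 4 lower of 18 tested in TC-32, 12 and 5 of 18 in TC-71 and 12 and 3 of 19 in A673, with medians of 0.33, 0.34 and 0.26. Over all genes 81.4%, 71.9% and 71% were called, so the number of calls in TC-32 was not above that of all genes. NOTCH2, a receptor of the family to which the DLK1 ligands relate, rose by 0.96, 1.51 and 0.83 in TC-32, TC-71 and A673 (highest edgeR adjusted p = 1.47e-12). NOTCH1 rose in TC-32 and TC-71 (0.29 and 0.24, highest edgeR adjusted p = 0.000653) and fell in A673 (-0.31, 0.000298). NOTCH3 rose in TC-71 and A673 (1.46 and 0.62, highest 7.40e-07), and its lower call in TC-32 (-0.17, 0.00855) was lost without siNeg replicate 1 (-0.14, 0.0511). DLK2, the closest relative of DLK1, rose in TC-32 by 1.13 (0.000299) and in A673 by 1.22 (0.00208) and fell in TC-71 by 1.55 on the log2 scale (1.01e-11). MAGED2, a relative of NDN, rose by 1.55, 1.80 and 0.62 (highest 1.69e-09). PLAG1, a relative of PLAGL1 that promotes growth, rose by 1.19 in TC-32 and 0.48 in TC-71 (3.78e-13 and 5.91e-07), with -0.0044 in A673 (0.944). IGF1R, the receptor that carries the IGF2 signal and to which GRB10 binds, rose by 0.71, 0.68 and 0.33 (highest 1.62e-06), while the adaptor IRS2 fell by 0.47, 1.51 and 1.62 (highest 8.36e-06). IRS1, the related adaptor, fell in TC-32 and TC-71 (-0.24 and -0.61, highest edgeR adjusted p = 7.88e-05) and rose in A673 (0.51, 8.21e-09). Of the RNA-binding proteins named for IGF2 mRNA, IGF2BP1 fell by 1.11, 0.58 and 0.64 (highest 2.78e-11), and IGF2BP2 rose by 0.37, 0.86 and 1.01 (highest 3.66e-07). IGF2BP3 rose by 0.67, 0.94 and 0.80 (highest 1.74e-11), and 17.8% of its exon bases are shared with a gene on the opposite strand.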

How the data were processed

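Messenger RNA of 18 libraries was sequenced with a stranded kit, per the labels' protocols. The authors deposited 1 table of unscaled values per line. The TC-71 table holds counts credited to Subread in its name, as deposited by the authors. The other tables hold estimated counts, credited by the authors to RSEM in the same way. The submitters' processing notes list cutadapt 4.4, STAR 2.7.3, featureCounts, Subread 2.0.3, limma 3.38.3 and GRCh38. Annotation release, strand setting and filters are not given in the sources used here. Only the table's name ties the TC-32 and TC-71 columns to their line.

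The members and gene lists were chosen with earlier results of these data known. Named genes are the 10 members, FLI1, genes of the lists of other imprinted genes, imprint maintenance factors and relatives or partners, and the 3 nearest genes by pattern for the 3 members of widest range. Of the other imprinted genes, 53 were matched and PEG3-AS1 was not. The limits on which interactions and baseline contrasts are given were set after the data were seen.

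Estimated counts were rounded. R 4.3.3 with edgeR 4.0.16 fitted every line separately (filterByExpr, TMM, robust quasi-likelihood F-test, Benjamini-Hochberg over all genes tested), while 1 model of 6 groups gave interactions and baseline contrasts. Adjusted p-values are from edgeR unless another tool is named. The default prior count of 0.125 applies to fold changes. Standard errors and intervals were computed from the fitted change and the F statistic. They can fall below counting error where siNeg counts are few, as for H19, MEG8 and PLAGL1 in TC-32 and H19 in TC-71. CPM are scaled by TMM over all 18 libraries. As alternatives, RLE factors, library size alone, no filter or a minimum mean of 10 counts, DESeq2 1.42.0, limma-voom (limma 3.58.1), unrounded values, only the 12 libraries of the lines compared, a replicate block and leaving out each library were tried. Scripts were tested on simulated data. Across genes, replicates correlated at 0.995 or more (Pearson, log2 CPM), and their counts differed by a chi-square of at least 2.49 per degree of freedom, above sampling noise. A count of 0 allows up to 3 counts. Such floors and intervals cover counting error only, since reads carry no molecular identifiers. Positions and exon lengths are from GENCODE 44, where 57754 of 58381 identifiers matched, and figures were drawn with matplotlib 3.10.9.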

Additional observations from a re-analysis of the deposited data

Results flagged for a closer look

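These results differed between lines in the test of the difference of the siFLI1 effect (edgeR interaction contrasts, log2 scale). For MEG3 the effect was higher in TC-32 than in A673 by 3.42 and than in TC-71 by 3.14. MEG8 gave 2.89 for TC-32 against A673, and H19 gave 7.12 for TC-32 against TC-71. PEG10 gave -2.15 for TC-32 against A673, -1.46 for TC-32 against TC-71 and 0.68 for A673 against TC-71. MEST gave 0.50 for TC-32 against A673, and NDN gave 0.66 for TC-32 against TC-71. PLAGL1 gave 2.17 for TC-32 against A673, 3.09 for TC-32 against TC-71 and 0.92 for A673 against TC-71. The call of that last contrast (edgeR adjusted p = 0.0469) was lost under 13 of the 18 alternatives. H19 and MEG8 in TC-32 and PLAGL1 in A673 had passed the filter only through the siFLI1 libraries. Line and table cannot be told apart in these contrasts.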

How the results depend on the processing

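The number of the 10 genes called after siFLI1 was 8 in TC-32 and 7 in A673 under every alternative run, and 6 to 7 in TC-71, where PEG10 lost its call without 1 of 3 libraries. For the interaction of A673 and TC-71 the number fell from 2 to 1 with library size alone and with limma-voom, and ranged from 1 to 2 when a library was left out, since PLAGL1 lost its call. Values that changed sign included GRB10 in TC-32 (-0.19 without siNeg replicate 3, -0.16 without siFLI1 replicate 1), PLAGL2 in A673 (-0.011 with library size alone), the FLI1 baseline of TC-32 against TC-71 (-0.20 with library size alone) and the MEST interactions of TC-32 against TC-71 (-0.17) and A673 against TC-71 (0.14). When a library was left out, GRB10 in TC-32 ranged up to 0.50, and these MEST interactions up to 0.64 and down to -0.67. Among genes not called, UHRF1 (-0.098, library size alone) and PLAG1 (0.0029, RLE factors) in A673 did so too, as did PLAGL2 in TC-32 (0.0071) and TC-71 (-0.00078) with library size alone. For these the cause was not tested. The replicate numbers showed no shared effect: same-number correlations of siNeg and siFLI1 deviations ran from -0.197 to 0.0534. Those between different numbers ran from -0.130 to 0.171. With 3 libraries per group, this cannot show whether libraries of the same number were handled together. With the replicate block, the number called for A673 against TC-71 was 1. Few counts limit DLK1 and MEG8 in TC-71, which could not be tested there.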
